A study of Neurospora crassa with 16 samples.

Results

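Cross-pathway control is the response by which a fungus short of one amino acid raises the synthesis of many, and 7 of its genes are described here of 9730 genes in the expression tables of Neurospora crassa, a filamentous fungus. The genes were chosen by locus tag: the regulator gene cpc-1 (NCU04050) and the enzyme genes his-3 (NCU03139), arg-2 (NCU07732), arg-12 (NCU01667), trp-1 (NCU00200), trp-3 (NCU08409) and leu-1 (NCU06232). All 7 carried these symbols in the NC12 annotation and all 7 were tested in each of the 3 comparisons. Cultures of 3 genotypes, wild type, ∆epr-1 (delta epr-1, the deletion of epr-1) and ∆set-7 (delta set-7), were compared by poly(A) RNA-seq. The set-7 gene encodes the methyltransferase that marks silent genes by methylating a lysine of histone H3, and epr-1 encodes a reader of that mark. The ∆epr-1 group held 2 libraries, in both of which the hph resistance cassette replaced epr-1; the strain of replicate 1 was mat a and that of replicate 2 mat A. These cultures grew by shaking for 16 h at 32 °C in Vogel's minimal medium with 1.5% sucrose, and their source is labelled as germinated conidia, while the protocol speaks of harvested mycelia. The wild type and ∆set-7 libraries had been published earlier in another series, and their growth and genotype beyond these names are not given in the sources used here.

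In cross-pathway control, uncharged tRNA activates the kinase CPC-3, which phosphorylates a translation initiation factor. Translation of the cpc-1 message then rises through its upstream open reading frames, and the CPC-1 protein, a basic leucine zipper activator like Gcn4 of budding yeast, binds the promoters of amino acid synthesis genes. CPC-1 also takes part in the transcription of its own gene. The level of its mRNA is therefore not the amount of the protein, which RNA-seq does not measure.

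The ∆epr-1 libraries held 10434667 and 10562443 reads in genes. Over 8030 genes averaging 10 or more normalized counts, the log2 ratio of replicate 2 to replicate 1 had an SD of 0.34. The deleted gene NCU07505 (epr-1) stood at a log2 fold of -2.33 in ∆epr-1 over wild type (adjusted p = 2.76e-21) per the authors' deposited table, with 60 and 53 reads left. The gene deleted in ∆set-7, NCU07496 (set-7), stood at a log2 fold of -1.65 in ∆set-7 over wild type with an adjusted p of 0.0460, and of 0.49 in ∆epr-1 over wild type (adjusted p = 0.556), per the authors' deposited tables. Since the wild type and ∆set-7 libraries belong to another series, a batch effect and the effect of deleting epr-1 cannot be told apart. Reads set aside as ambiguous were lower in ∆epr-1 than in wild type by a log2 fold of -0.87 (adjusted p = 3.14e-17) and unmapped reads by one of -0.84 (adjusted p = 6.26e-06), per the authors' deposited table, and the part of these in the results was not tested. In bulk cultures, fewer cells of one kind and less RNA per cell cannot be told apart. The wild type libraries carry the same strain name in the headers, while the ∆epr-1 libraries differ in strain. Nothing else in the labels says whether the libraries of a group came from separate cultures, so p-values cannot be said to cover a spread between cultures. For the leucine gene leu-2 the standard error was 0.34 in each of the 3 comparisons, while its ∆epr-1 libraries had a log2 ratio of 1.02. The p-values therefore do not measure the spread of the ∆epr-1 pair alone.

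In ∆epr-1 the regulator gene rose and 3 of the 6 enzyme genes fell. That comparison called 47.8% of all tested genes, and a departure of the 7 from this share was not tested. The cpc-1 message was higher than in wild type, while his-3, trp-3 and arg-12 were lower, and arg-2, trp-1 and leu-1 did not pass the test. In ∆set-7 the order was another: cpc-1 and his-3 did not pass, and arg-12, trp-3, trp-1 and leu-1 were higher than in wild type. A gene counts as called below an adjusted p of 0.05 (Wald test of DESeq2, Benjamini-Hochberg). In ∆epr-1, 1 of the 7 rose and 3 fell, where 47.8% of all 8624 tested genes were called, 23.3% up and 24.5% down. In ∆set-7, 4 of the 7 rose and 0 fell, where 21.8% of 8254 tested genes were called, 10.3% up and 11.6% down. At an unadjusted p below 0.05 of DESeq2, 5 rose and 0 fell. The share of all tested genes at that looser threshold was not computed, so these shares are no background for it. The median log2 fold of the 7 was -0.31 in ∆epr-1 and 0.43 in ∆set-7, per the authors' deposited tables, where the medians of all tested genes were -0.0017 and 0.0027.

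The cpc-1 gene had 14894 normalized counts in ∆epr-1 replicate 1 and 13755 in replicate 2, from 18220 and 16198 reads. Both libraries lay above the authors' mean of 10804 over all libraries of the 3 genotypes, which includes these libraries. Against wild type cpc-1 rose at a log2 fold of 0.69 (adjusted p = 3.22e-07, SE 0.13), or 1.62-fold with a 95% interval of 1.36 to 1.92, per the authors' deposited table of ∆epr-1. In the authors' deposited table of ∆set-7 its log2 fold was 0.07 (95% interval -0.18 to 0.32, adjusted p = 0.768). The direct contrast put cpc-1 higher in ∆epr-1 than in ∆set-7 by a log2 fold of 0.62 (adjusted p = 5.78e-06, SE 0.13) per the authors' deposited table. By these tests ∆epr-1 stood highest, and wild type and ∆set-7 were not told apart.

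**Figure D1:**
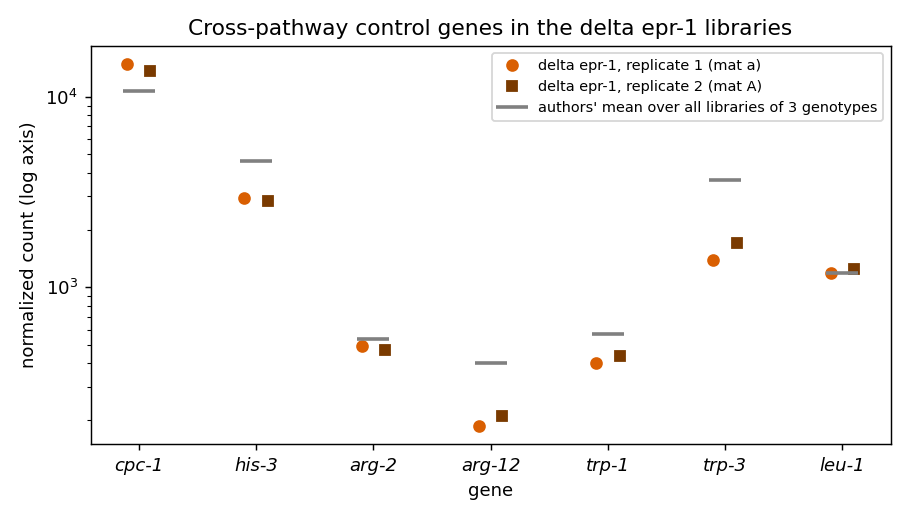
Normalized counts (log axis) of the 7 cross-pathway control genes in the ∆epr-1 libraries of replicate 1 (circles) and replicate 2 (squares), with the authors' mean over all libraries of the 3 genotypes as grey bars. For cpc-1 both libraries lie above the bar of 10804, and for his-3, arg-2, arg-12, trp-1 and trp-3 both lie below it; counts are not divided by gene length, so heights are not compared between genes.

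The histidine gene his-3 encodes a multifunctional enzyme that catalyses early steps and the last steps of histidine synthesis. It had 2931 normalized counts in ∆epr-1 replicate 1 and 2856 in replicate 2. The libraries were close, with a log2 ratio of replicate 2 to replicate 1 of -0.04. Against wild type his-3 fell at a log2 fold of -0.85 (adjusted p = 3.15e-12, SE 0.12) per the authors' deposited table of ∆epr-1. In ∆set-7 its log2 fold was 0.09 (95% interval -0.14 to 0.32, adjusted p = 0.661) per the authors' deposited table. It was lower in ∆epr-1 than in ∆set-7, at a log2 fold of -0.95 (adjusted p = 1.08e-14, SE 0.12) per the authors' deposited table. So his-3 was lowest in ∆epr-1, and the other two genotypes were not told apart.

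The tryptophan genes are trp-3, which encodes tryptophan synthase of the last step, and trp-1, which encodes a multifunctional enzyme with the glutamine amidotransferase part of anthranilate synthase. trp-3 had 1387 normalized counts in ∆epr-1 replicate 1 and 1700.0 in replicate 2. Among the 7 genes this was the widest gap between the libraries, with a log2 ratio of 0.29, still under the SD of 0.34 over the 8030 genes averaging 10 or more normalized counts. Against wild type trp-3 fell at a log2 fold of -1.10 (adjusted p = 1.52e-10, SE 0.16), or 2.14-fold, per the authors' deposited table of ∆epr-1. It rose in ∆set-7 at a log2 fold of 0.86 (adjusted p = 2.37e-06, SE 0.16), or 1.81-fold, per the authors' deposited table. The mutants therefore stood on opposite sides of wild type, 3.88-fold apart (95% interval 3.11 to 4.84; log2 fold -1.96, adjusted p = 1.25e-31) in the direct contrast, per the authors' deposited table.

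trp-1 had 401 and 436 normalized counts in ∆epr-1 replicates 1 and 2, and a log2 fold of -0.31 against wild type (adjusted p = 0.0784, SE 0.15) per the authors' deposited table. In ∆set-7 trp-1 rose at a log2 fold of 0.54 (adjusted p = 0.00342, SE 0.15) per the authors' deposited table. In the direct contrast it was lower in ∆epr-1, at a log2 fold of -0.85 (adjusted p = 2e-07) per the authors' deposited table. ∆set-7 thus stood highest for trp-1, and wild type and ∆epr-1 were not told apart.

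Of the arginine genes, arg-12 encodes ornithine carbamoyltransferase, which makes citrulline, and arg-2 encodes the small subunit of the arginine-specific carbamoyl phosphate synthetase. arg-12 was the gene with the fewest reads here, 228 in replicate 1 of ∆epr-1 (199 to 260 as an exact 95% Poisson interval) and 249 in replicate 2 (219 to 282), which makes 186 and 211 normalized counts. Such intervals cover counting error only. The arg-12 gene rose in ∆set-7 at a log2 fold of 1.30 (adjusted p = 1.07e-13, SE 0.16), or 2.47-fold, per the authors' deposited table, the largest rise among the 7. It fell in ∆epr-1 at a log2 fold of -0.51 (adjusted p = 0.00678, SE 0.17) per the authors' deposited table. That call was lost without replicate 1, where the log2 fold was -0.42 (adjusted p = 0.0979). Between the mutants arg-12 differed 3.52-fold (95% interval 2.80 to 4.42; log2 fold -1.82, adjusted p = 7.89e-26) per the authors' deposited table.

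The arg-2 message is known for an upstream open reading frame whose peptide stalls ribosomes when arginine is plentiful. It had 491 normalized counts in replicate 1 and 468 in replicate 2 of ∆epr-1. Its log2 fold against wild type was -0.0037 (95% interval -0.35 to 0.34, adjusted p = 0.988) in ∆epr-1 per the authors' deposited table. In ∆set-7 the log2 fold was 0.43 (95% interval 0.08 to 0.78, adjusted p = 0.0664) per the authors' deposited table, and not called. It was lower in ∆epr-1 than in ∆set-7, at a log2 fold of -0.43 (adjusted p = 0.0344, SE 0.18) per the authors' deposited table. Without replicate 1 that log2 fold was -0.47 and without replicate 2 it was -0.40. The call was lost both times, but leaving out a library doubled the ∆epr-1 variance, so the loss does not show that the libraries differed.

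The leucine gene leu-1 encodes beta-isopropylmalate dehydrogenase. It had 1192 and 1255 normalized counts in ∆epr-1 replicates 1 and 2, beside the authors' mean of 1195 over all libraries. Its log2 fold was 0.23 in ∆epr-1 (95% interval -0.0019 to 0.47, adjusted p = 0.0970) and 0.35 in ∆set-7 (95% interval 0.11 to 0.59, adjusted p = 0.0258), per the authors' deposited tables. The direct contrast gave -0.11 (95% interval -0.35 to 0.13, adjusted p = 0.494) per the authors' deposited table. leu-1 was the only one of the 7 for which the direct contrast made no call.

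**Figure D2:**
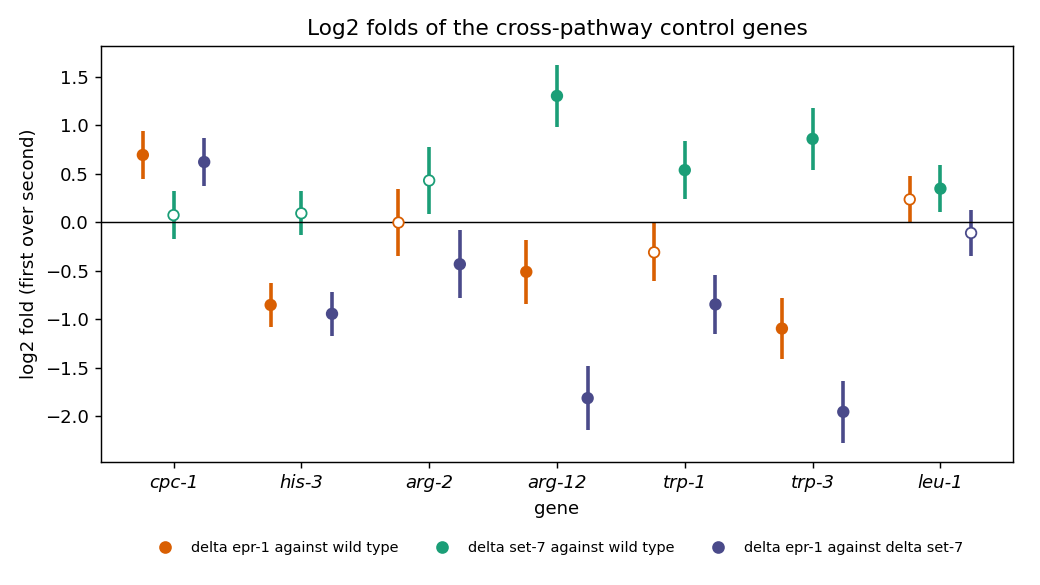
Log2 folds of the 7 cross-pathway control genes per the authors' deposited tables for ∆epr-1 over wild type (orange), ∆set-7 over wild type (green) and ∆epr-1 over ∆set-7 (blue); bars are 95% intervals, filled points have an adjusted p below 0.05 and open points do not. arg-12 and trp-3 lie below 0 in ∆epr-1 and above 0 in ∆set-7, and cpc-1 is the single gene with a positive fold in the direct contrast.

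Set directly against each other, the mutants differed in 6 of the 7 genes: cpc-1 was higher in ∆epr-1 and his-3, arg-2, arg-12, trp-1 and trp-3 were lower. Of all 8809 tested genes, 45.9% were called in this contrast, 22.1% as higher and 23.8% as lower. The median log2 fold of the 7 was -0.85 and that of all tested genes 0.0096, per the authors' deposited table. The comparisons with wild type share its libraries, so the values of the genes in both are given side by side and no agreement between them was measured.

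Of the other regulators of the pathway, cpc-2 fell and cpc-3 rose in ∆epr-1. cpc-2 encodes a WD-repeat protein, the counterpart of the ribosome-associated RACK1. It had 8207 and 8726 normalized counts in ∆epr-1 and fell at a log2 fold of -1.01 (adjusted p = 6.23e-23, SE 0.10) per the authors' deposited table, beside 0.12 (adjusted p = 0.436) in ∆set-7. cpc-3 encodes the kinase that senses uncharged tRNA, the counterpart of Gcn2 of budding yeast. It rose in both mutants, at log2 folds of 0.45 (adjusted p = 0.00733, SE 0.15) in ∆epr-1 and 0.71 (adjusted p = 4.20e-05, SE 0.15) in ∆set-7, per the authors' deposited tables. Without replicate 1 the fold of cpc-3 in ∆epr-1 was 0.43 (adjusted p = 0.0506).

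Other genes of histidine, arginine, tryptophan and leucine synthesis, 16 by symbol, went up and down in ∆epr-1 and mostly up in ∆set-7. In ∆epr-1 7 rose and 4 fell, with a median log2 fold of 0.31, and in ∆set-7 11 rose and 2 fell, with a median of 0.47, per the authors' deposited tables. Of all tested genes, 23.3% rose and 24.5% fell in ∆epr-1, and 10.3% rose and 11.6% fell in ∆set-7. All 7 that rose in ∆epr-1 were arginine genes, of 9 in the list. They were arg-13, the mitochondrial carrier of ornithine and arginine (1.36), arg-3, the large subunit that pairs with ARG-2 (1.24), arg-6 (0.99), arg-5 (0.81), arg-4 (0.55), arg-1 (0.43) and arg-10 (0.38), as log2 folds per the authors' deposited table. arg-14 fell (-0.31, adjusted p = 0.0416) and arg-15 was not called (0.23). The list leaves out the arginine genes among the 7, of which arg-12 fell in ∆epr-1 (-0.51) and arg-2 was not called. The subunits of carbamoyl phosphate synthetase thus had unlike folds in ∆epr-1, 1.24 for arg-3 (adjusted p = 3.15e-11, SE 0.18) and -0.0037 for arg-2, and 0.51 and 0.43 in ∆set-7, per the authors' deposited tables; a difference between genes was not tested.

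Of the 3 histidine, 2 tryptophan and 2 leucine genes in the list, none rose in ∆epr-1, where 23.3% of all tested genes did. With so few genes a difference from the arginine genes was not tested. his-7 fell by 0.62, trp-2, the large component of anthranilate synthase, by 0.39 and leu-4, isopropylmalate synthase, by 0.37 on the log2 scale per the authors' deposited table. The folds of his-2 (0.16), his-6 (-0.10), trp-4 (0.19) and leu-2 (0.44) did not pass in that table. leu-2 had 168 normalized counts in replicate 1 and 343 in replicate 2, a log2 ratio of 1.02, so the libraries stood far apart for this gene. In ∆set-7 his-6 (1.28), arg-10, argininosuccinate lyase (1.26), arg-6 (0.95), arg-5 (0.92) and leu-4 (0.77) had the largest rises among called genes of the list, as log2 folds per the authors' deposited table. leu-2 stood at 0.84 in ∆set-7 and was not called (adjusted p = 0.0575). arg-13 (-1.33, adjusted p = 1.55e-05) and arg-1, argininosuccinate synthase (-0.24, adjusted p = 0.0471), fell there. By call, leu-4, trp-2 and arg-14 fell in ∆epr-1 and rose in ∆set-7, and arg-13 and arg-1 did the reverse. Both comparisons share the wild-type libraries, and the share of all tested genes with such calls was not computed. arg-13 had 970 normalized counts in ∆epr-1 replicate 1 and 1596 in replicate 2, a log2 ratio of 0.72, and its rise in ∆epr-1 was 1.67 without replicate 1 (adjusted p = 1.46e-06) and 0.95 without replicate 2 (adjusted p = 0.00861). The calls of leu-4 (-0.36, adjusted p = 0.0796) and arg-10 (0.32, adjusted p = 0.0971) in ∆epr-1 were lost without replicate 1. That of arg-14 was lost without replicate 1 (-0.29, adjusted p = 0.144) and without replicate 2 (-0.32, adjusted p = 0.0967).

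**Figure D3:**
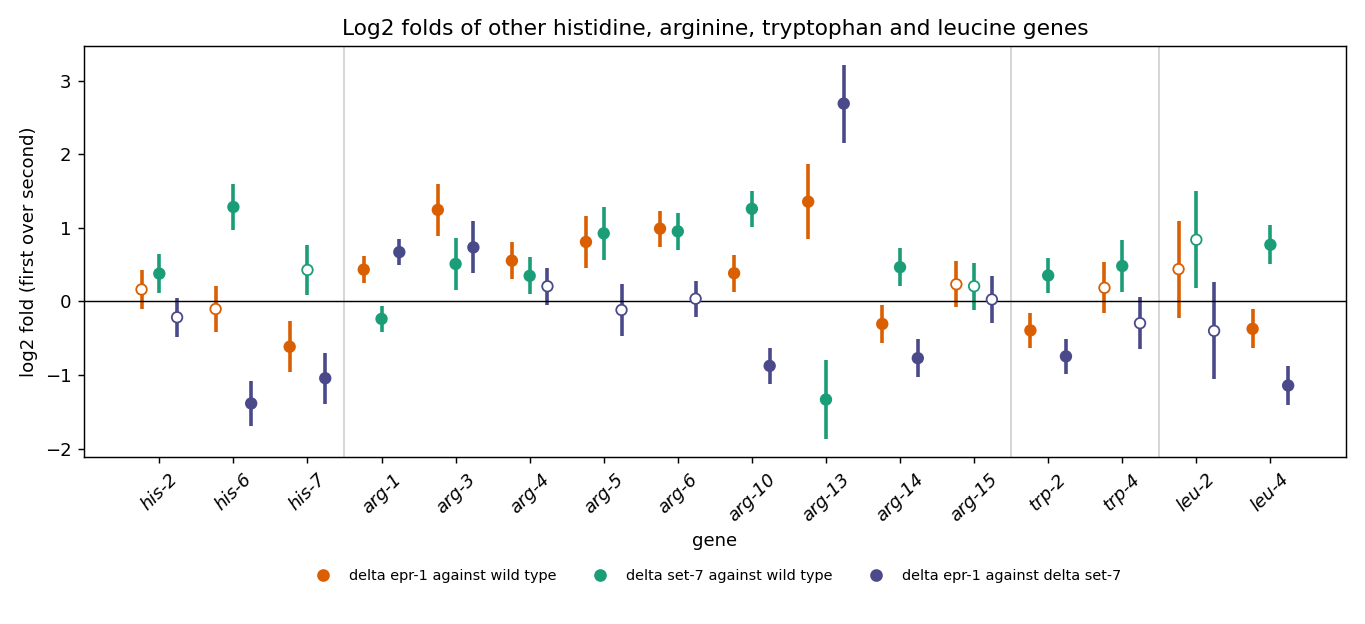
Log2 folds of 16 other genes of histidine, arginine, tryptophan and leucine synthesis (set apart by grey lines) per the authors' deposited tables; colours, 95% interval bars and filled points are as named in the legend and called at an adjusted p below 0.05. Most arginine genes lie above 0 in ∆epr-1 (orange), led by arg-13 at 1.36 and arg-3 at 1.24, and arg-13 lies at -1.33 in ∆set-7 (green).

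Genes for other amino acids, 34 by symbol, gave 14 rises and 6 falls in ∆epr-1 and 20 rises and 0 falls in ∆set-7. Of all tested genes, 47.8% were called in ∆epr-1 (23.3% up, 24.5% down) and 21.8% in ∆set-7 (10.3% up, 11.6% down). At an unadjusted p below 0.05 of DESeq2, 23 of the 34 rose and 0 fell in ∆set-7. The share of all tested genes at that looser threshold was not computed. The median log2 folds of the 34 were 0.16 and 0.48 per the authors' deposited tables. The largest rises in ∆epr-1 were those of lys-3 (1.69), aro-1, the multifunctional enzyme of the shikimate path (1.11), lys-6 (1.03) and cys-18 (0.99), and the largest falls those of thr-5 (-1.003), lys-7 (-0.60), aro-8 (-0.55) and ilv-5 (-0.52), as log2 folds per the authors' deposited table. Without replicate 1 the calls of lys-7 (-0.45), aro-8 (-0.36) and ilv-5 (-0.46) were among those lost, and ilv-5 was not called without replicate 2 either (-0.59). The share of all tested genes that lost a call was not computed. In ∆set-7 thr-5 (1.24), aro-8 (1.14), hom-1, homoserine dehydrogenase (1.01), and pro-4 (0.85) rose most per the authors' deposited table. In this list thr-5, aro-8 and cys-4 (-0.47, adjusted p = 0.0221, and 0.48, adjusted p = 0.0374, per the authors' deposited tables) fell in ∆epr-1 and rose in ∆set-7. Both comparisons share the wild-type libraries, and the share of all tested genes with both calls was not computed. Without replicate 1, cys-4 was no longer called in ∆epr-1 (-0.42, adjusted p = 0.118), like aro-8. The list also held cys-9, which encodes thioredoxin reductase; it rose in ∆epr-1 (0.44, adjusted p = 0.0277) per the authors' deposited table, but not without replicate 1 (0.38, adjusted p = 0.161).

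Of 5 listed genes that charge tRNA, 4 rose in ∆epr-1, where 23.3% of all tested genes did, and the same 4 rose in ∆set-7, where 10.3% did. The comparisons share the wild-type libraries, and the share of all tested genes that rose in both was not computed. In ∆epr-1 the log2 folds were 0.79 for cyt-20, valyl-tRNA synthetase, 0.78 for leu-6 and 0.74 for leu-5, leucyl-tRNA synthetases of cytosol and mitochondria, and 0.68 for trp-5, tryptophanyl-tRNA synthetase, per the authors' deposited table. The same genes had 0.30, 0.46, 0.67 and 0.93 in ∆set-7 per the authors' deposited table. cyt-18, the mitochondrial tyrosyl-tRNA synthetase, was not called in either (-0.14 and 0.45).

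Uptake and breakdown genes differed one by one. mtr, the permease for neutral and aromatic amino acids, had 2190.0 and 2121 normalized counts in ∆epr-1; it fell there at a log2 fold of -0.86 (adjusted p = 8.97e-16, SE 0.10) and rose in ∆set-7 by a log2 fold of 0.91 (adjusted p = 2.60e-17, SE 0.10), per the authors' deposited tables. pmb, the permease for basic amino acids, rose in ∆epr-1 (0.59, adjusted p = 0.00917) per the authors' deposited table, but not without replicate 2 (0.54, adjusted p = 0.0642), and was not called in ∆set-7 (0.30). The general permease gene pmg was called in neither mutant (0.31 and 0.34). In arginine breakdown the arginase gene aga-1 rose in ∆epr-1 (0.80, adjusted p = 0.000913) per the authors' deposited table; without replicate 2 its log2 fold was 0.47 (adjusted p = 0.148). The ornithine transaminase gene ota fell there at a log2 fold of -1.87 (adjusted p = 4.69e-05, SE 0.42) per the authors' deposited table, with 22.9 normalized counts in replicate 1 and 79.0 in replicate 2. The libraries stood far apart for ota, whose log2 fold was -1.25 without replicate 1 (adjusted p = 0.0474) and -3.01 without replicate 2 (adjusted p = 8.51e-08). In ∆set-7 aga-1 (0.08) and ota (0.70) were not called per the authors' deposited table.

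**Figure D4:**
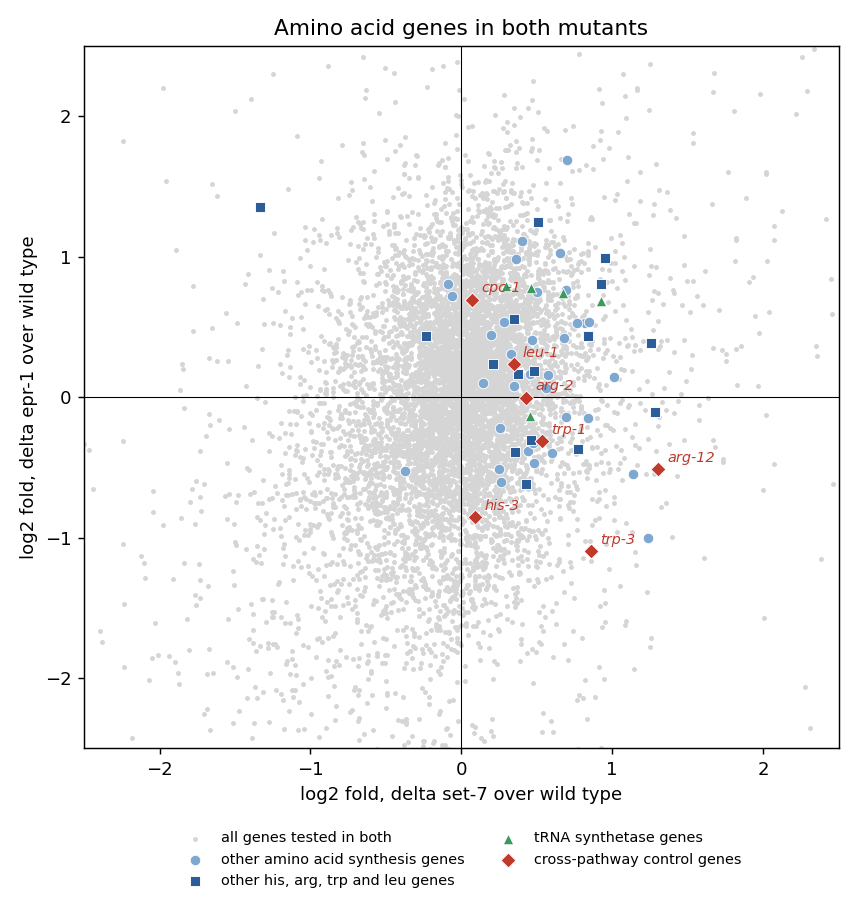
Log2 fold in ∆epr-1 over wild type (vertical) against log2 fold in ∆set-7 over wild type (horizontal), from the authors' deposited tables, for 8254 genes tested in both (grey; 169 lie outside the axes of ±2.5) and for the listed genes by colour and shape; both axes share the wild-type libraries. trp-3 and arg-12 lie at the lower right, cpc-1 near the vertical axis at 0.69, and the tRNA synthetase genes except cyt-18 at the upper right.

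By the distance over both mutants' log2 folds, the 5 genes with a symbol most like cpc-1 were chs-1, pmr-1, tzn-2, rgf3 and gna-3, of 1034 such genes with a mean of at least 50. Their log2 folds in ∆epr-1 ran from 0.66 for rgf3 and tzn-2 to 0.72 for gna-3, and in ∆set-7 from 0.05 for gna-3 to 0.10 for pmr-1, per the authors' deposited tables. None of them was on the lists of amino acid genes. The measure rests on 3 genotypes.

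The 7 genes had 14 adjoining protein-coding genes in the NC12 annotation. Of these, 12 were tested. In ∆epr-1 8 of the 12 were called, where 47.8% of all tested genes were, and 2 of these went the way of the called gene beside them. arg-2, trp-1 and leu-1 were not called in ∆epr-1, so the called genes beside them could not count among the 2. NCU04049, next to cpc-1, rose by a log2 fold of 1.38 (adjusted p = 7.47e-12) and NCU04051 on its other side fell (-0.34, adjusted p = 0.0169), per the authors' deposited table of ∆epr-1. NCU01668, next to arg-12, fell there (-1.27), and ilv-4 on the other side was not called (0.06). In ∆set-7 4 of the 12 were called, where 21.8% of all tested genes were, and 1, ilv-4 (0.56), rose beside arg-12.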

How the data were processed

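Poly(A) RNA-seq of Neurospora crassa was analysed; the 14 ChIP-seq and DamID samples were not used here. The submitters' processing notes name Bowtie2 and DESeq2 without versions; the counter, its strand setting and the genome build are not given in the sources used here. For single samples, 1 table held signal, the normalized counts the authors made with DESeq2, per the file headers. In its 2 ∆epr-1 columns, multiplying by size factors of 1.22 and 1.18 gave whole reads within 0.01 for 100% of genes; 4 columns of other libraries were not used. The deposited tables of 3 comparisons held log2 folds with standard errors, a score (the Wald statistic), p-values and adjusted p-values, per the file headers. Whether the folds were shrunk is not given. Signs were set so that folds above 0 are higher in the first genotype named. Of 9730 genes, 9729 matched the NC12 annotation, which gave symbols only. The 4 entries that name no gene held 19.1% and 17.5% of reads and were left out.

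Called genes had a deposited adjusted p below 0.05. Intervals are 95%, folds ± 1.96 standard errors. To leave out 1 of the ∆epr-1 libraries, the log2 ratio of the other to the mean of both (pseudocount 0.5) was added to the fold, the ∆epr-1 variance, solved from the 3 standard errors, was doubled, and Benjamini-Hochberg was run again; the lone library was assumed to vary like the pair. These steps were run on simulated log2 values with the same known variance for every gene. That does not check them on counts whose spread differs between genes. A call can be lost through the doubled variance alone, so a lost call does not show that the libraries differed. The genes and lists were chosen with earlier results of these data known. Named were the 7 genes, every gene of the histidine, arginine, tryptophan and leucine list and of lists of up to 8, the 4 largest folds per direction of the list for other amino acids, and the 5 genes nearest to cpc-1; cys-9, cys-4 and the adjoining genes were named after their values were seen. Python 3.11.15, pandas 2.3.3 and scipy 1.17.1 were used.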

Additional observations from a re-analysis of the deposited data

Results flagged for a closer look

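By the direct contrast in the authors' deposited table, ∆epr-1 and ∆set-7 differed (adjusted p below 0.05, Wald test of DESeq2) for 6 of the 7 cross-pathway control genes. The libraries of these mutants come from different series, so genotype and batch cannot be told apart in this contrast. The same contrast called 45.9% of the 8809 genes it tested, 22.1% as higher in ∆epr-1 and 23.8% as lower, which is the background for every list given here. As log2 folds of ∆epr-1 over ∆set-7, the differences of the 6 genes were 0.62 for cpc-1, -0.95 for his-3, -0.43 for arg-2, -1.82 for arg-12, -0.85 for trp-1 and -1.96 for trp-3. The regulator gene cpc-2 stood at -1.13.

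Of the other genes of the same pathways, arg-13 (2.69), arg-3 (0.73) and arg-1 (0.67) were higher in ∆epr-1 than in ∆set-7, and his-6 (-1.39), leu-4 (-1.14), his-7 (-1.04), arg-10 (-0.88), arg-14 (-0.77) and trp-2 (-0.75) were lower, in the same deposited table. For leu-2 the direct contrast gave -0.40 (adjusted p = 0.352), but -1.001 (adjusted p = 0.0389) without replicate 2.

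Among genes for other amino acids the lower ones in ∆epr-1 were thr-5 (-2.24), aro-8 (-1.69), aro-6 (-0.999), pro-3 (-0.99), cys-4 (-0.94), hom-1 (-0.87), lys-7 (-0.87), cys-17 (-0.83), asn-2 (-0.83), cys-12 (-0.81), thr-4 (-0.76), ilv-4 (-0.50), met-10 (-0.48) and aro-7 (-0.41), per the authors' deposited table. The higher ones were lys-3 (0.99), cys-16 (0.89), lys-5 (0.79), aro-1 (0.71) and cys-18 (0.62). The tRNA synthetase genes cyt-20 (0.50) and leu-6 (0.32) and the arginase gene aga-1 (0.71) were higher as well, and the permease gene mtr (-1.78) and ota (-2.58) were lower. The calls of leu-6 and arg-2 were lost without either library, those of met-10 (-0.43, adjusted p = 0.0592) and aga-1 (0.39, adjusted p = 0.262) without replicate 2; for leu-6 the values were 0.26 without replicate 1 and 0.37 without replicate 2.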

How the results depend on the processing

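No paired analysis was possible because the per-sample columns used here hold ∆epr-1 alone. Of the 21 folds of the 7 genes, none changed sign or call when genes needed a mean of at least 50, when Benjamini-Hochberg covered every gene with a p, or when folds were recentred on their median. At an adjusted p below 0.01, 2 calls were lost, leu-1 in ∆set-7 and arg-2 in the direct contrast. With a log2 fold of at least 1 required, the called genes of the 7 were 1 in ∆epr-1, 1 in ∆set-7 and 2 in the direct contrast; for the other genes of their pathways they were 2, 3 and 4, and for other amino acids 4, 3 and 2. Below 0.01, 12 genes for other amino acids were called in ∆epr-1 and 7 same-pathway genes in ∆set-7. Leaving out a ∆epr-1 library gave 13 to 16 called genes for other amino acids in place of 20, and 3 to 4 of the 7 in place of 4. The shares of all tested genes called at these other settings were not computed, so these counts have no background. The log2 ratios of the libraries moved by less than their SD over genes with a pseudocount of 5 or with reads scaled by the total in genes. No library could be left out of ∆set-7 against wild type, since those columns were not used here. Depth limited arg-12 most among the 7, at 228 and 249 reads.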
